A study of Mus musculus with 30 samples.

Results

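The glutamate and GABA receptor genes encode the proteins through which neurons sense the main excitatory and inhibitory transmitters of the brain. They were taken as all rows of the gene table whose symbol begins with Gria, Grid, Grik or Grin followed by a digit, or is Grm with a digit, Gabr with a subunit letter, or Gabbr1 or Gabbr2. This gave 49 of 25400 genes. Of these, 47 encode receptors or receptor subunits, and 2 share the name only, namely *Grid2ip*, which encodes the scaffold protein delphilin, and *Grin1os*, a transcript antisense to *Grin1*. Reads were found for 48 of the 49 genes in at least 1 library, and 46 had 10 or more reads summed over all libraries. *Gabra6*, the GABA-A subunit typical of cerebellar granule cells, had no read in any library, where 3 reads would have given between 0.0607 and 0.115 CPM (read counts scaled to the size of the library). After the filter on low counts 37 genes were tested, 36 of them receptor genes. The 12 untested genes included *Grin2a*, *Grin3b*, *Grm3*, *Grm5*, *Grm7*, *Gabra2*, *Gabra6*, *Gabrb1*, *Gabrr1*, *Gabrr3* and *Grin1os*. A mean of 1 CPM or more was reached by 27 genes in at least 1 line, by 23 in WT and by 16 in *Mbd3* KO.

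Polyadenylated RNA was sequenced from NPCs (neuronal progenitor cells) taken on day 8 of the differentiation of mouse ESCs, with 3 libraries for each of 8 lines. WT cells carried no *Mbd3* deletion. All other lines were *Mbd3* KO, made with CRISPR-Cas9, and 6 of them also expressed a biotin-tagged protein from the CAG promoter at a fixed recombination site. These proteins were MBD3a, MBD3ΔMBD (which lacks the methyl-CpG binding domain, MBD), MBD2a, MBD2aΔGR (which lacks the glycine-arginine repeat), MBD2aR181C (a point mutant of the MBD) and MBD2t (an isoform truncated before the coiled coil). MBD2 and MBD3 are alternative subunits of NuRD, a complex that remodels and deacetylates chromatin. Each library came from its own clone, except that the 3 MBD2t libraries are repeats of 1 clone and leave out differences between clones. The columns of the point mutant carry another residue number than the labels, and were matched to MBD2aR181C because no other group was left. Libraries are named s01 to s24 as in the gene table, which gives no replicate number. The question put to each line is how far the added protein brought the *Mbd3* KO cells back to WT.

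Library totals lay between 27993858 and 49392806 reads. *Mbd3* itself ran from 149 to 156.9 CPM in WT and from 34.3 to 73.8 CPM in *Mbd3* KO, so reads of the targeted gene were lower but not absent in the KO. Some libraries stood apart from the others of their line. WT library s03 held 1319 CPM summed over 11 neuron markers, against 2761 and 3238 CPM in the other WT libraries. MBD2aΔGR library s18 held 3308 CPM over 6 endoderm markers, against 273.9 and 367.3 CPM in the other libraries of that line. MBD2aR181C library s20 held 215.2 CPM over 5 pluripotent cell markers, against 21.7 and 81.6 CPM in the other libraries of that line. The WT libraries held between 20.61 and 107.4 CPM of these markers, with s03 the highest. Several results that rest on s03 or s18 are given with and without these libraries. The NPC label was checked against 7 progenitor markers, which summed to between 1908 and 2139 CPM in WT but to between 273.8 and 336.3 CPM in *Mbd3* KO, where all 7 were called lower.

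Ionotropic glutamate receptors are tetramers. AMPA receptors (*Gria1* to *Gria4*) carry fast excitatory currents, kainate receptors (*Grik1* to *Grik5*) act on both sides of the synapse, and NMDA receptors (*Grin* genes) need an obligatory *Grin1* subunit and a co-agonist. Delta receptors, such as that of *Grid1*, bridge synapses through cerebellins. Metabotropic glutamate receptors (*Grm* genes) and GABA-B receptors (*Gabbr1*, *Gabbr2*) signal through G proteins. GABA-A receptors are pentameric chloride channels, most often built from alpha, beta and gamma subunits, and they are expressed early, before synapses form. The MBD of MBD2 binds methylated CpG, so the CpG content at the gene starts is shown first.

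Start regions of 4 receptor genes are printed, 2 that fell and 2 that rose in *Mbd3* KO, to show that each direction held a CpG-rich and a CpG-poor start. Each spans 250 bases before and 50 bases after the 5′ end of the gene in GENCODE on NCBIM37 (mm9), the build of the gene table, written 5′ to 3′ on the coding strand with every CpG in capitals. *Gria2* lies at chr3:80606664-80606963 on the minus strand, *Gabra3* at chrX:69902138-69902437 on the minus strand, *Grin2c* at chr11:115128508-115128807 on the minus strand and *Gabrp* at chr11:33478910-33479209 on the minus strand.
Gria2: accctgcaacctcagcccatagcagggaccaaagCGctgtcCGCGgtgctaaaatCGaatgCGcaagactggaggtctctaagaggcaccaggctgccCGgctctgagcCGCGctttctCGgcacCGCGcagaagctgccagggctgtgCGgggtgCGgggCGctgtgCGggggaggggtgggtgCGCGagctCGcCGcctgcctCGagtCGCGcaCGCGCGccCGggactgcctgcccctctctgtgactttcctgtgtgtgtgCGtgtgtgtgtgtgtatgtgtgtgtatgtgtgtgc
Gabra3: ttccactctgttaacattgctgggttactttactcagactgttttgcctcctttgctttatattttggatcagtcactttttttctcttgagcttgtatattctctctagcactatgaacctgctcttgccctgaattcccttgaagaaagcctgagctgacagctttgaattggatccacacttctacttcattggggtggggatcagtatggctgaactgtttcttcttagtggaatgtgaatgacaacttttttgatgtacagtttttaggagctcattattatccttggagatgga
Grin2c: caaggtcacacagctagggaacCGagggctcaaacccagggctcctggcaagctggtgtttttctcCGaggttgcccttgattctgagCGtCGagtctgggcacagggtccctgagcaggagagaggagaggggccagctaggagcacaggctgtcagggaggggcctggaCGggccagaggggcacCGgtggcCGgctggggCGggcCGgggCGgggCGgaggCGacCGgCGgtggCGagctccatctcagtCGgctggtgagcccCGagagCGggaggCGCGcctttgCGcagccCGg
Gabrp: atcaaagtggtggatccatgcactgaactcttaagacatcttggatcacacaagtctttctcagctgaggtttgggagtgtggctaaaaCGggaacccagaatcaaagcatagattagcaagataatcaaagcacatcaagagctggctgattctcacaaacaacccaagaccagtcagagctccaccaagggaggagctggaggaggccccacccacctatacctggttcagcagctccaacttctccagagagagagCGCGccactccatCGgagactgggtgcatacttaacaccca
Of the genes that fell, *Gria2* held 27 CpGs and *Gabra3* held 0, and of those that rose, *Grin2c* held 22 and *Gabrp* 4. Over the members that fell the count ran from 0 to 50 with a median of 17, over those that rose from 4 to 28 with a median of 13, and over those not called from 1 to 45 with a median of 19.5. Among all 16582 tested genes the median was 17 CpGs. It was 16 for those called lower in *Mbd3* KO, 10 for those called higher and 19 for those not called, the same order as in the members. DNA methylation and binding of the MBD proteins at these starts were not analysed here.

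In WT NPCs the receptor genes spanned a wide range. On a per-length scale (RPKM, CPM per kilobase of exon), the highest was the kainate subunit *Grik5* at 26.0 ± 6.81 RPKM (SD, n = 3). *Gabbr1* followed at 9.47 ± 3.30 RPKM and *Grm2* at 9.42 ± 3.73 RPKM, which did not differ beyond their spread. *Grik3* came next at 4.98 ± 3.38 RPKM, and *Grik4* was at 2.32 ± 0.405 RPKM. In *Mbd3* KO *Grik5* was again first at 13.03 ± 2.354 RPKM, but *Gabrp*, a GABA-A subunit known mainly from epithelial tissues, was next at 6.67 ± 3.25 RPKM. *Gabbr1* was at 4.50 ± 0.147 RPKM, which did not differ from *Gabrp* beyond their spread, and *Grin2c* was at 2.37 ± 1.56 RPKM.

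**Figure D1:**
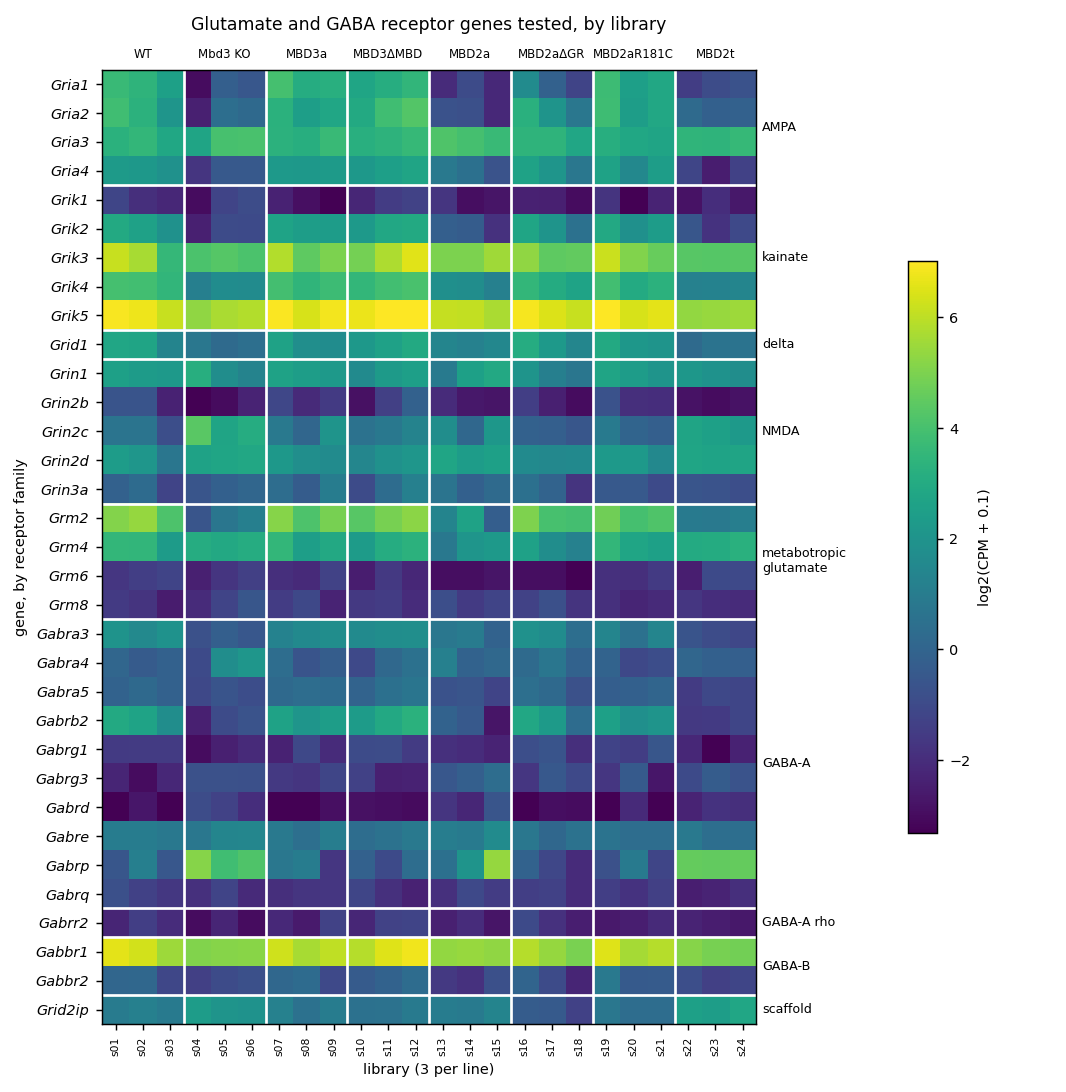
Level of 33 of the tested genes (rows, by receptor family) in each of the 24 libraries (columns, 3 per line), as log2 of CPM plus 0.1. *Gria1*, *Gria2*, *Grik2*, *Grm2* and *Gabrb2* are darker in *Mbd3* KO, MBD2a and MBD2t than in WT, while *Gabrp* is brighter in *Mbd3* KO and MBD2t and in library s15 of MBD2a.

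Without MBD3 more receptor genes were called lower than higher, and the NMDA and GABA-A families were split. Of the 37 members tested, 15 were called lower in *Mbd3* KO than in WT and 6 higher (edgeR quasi-likelihood test, Benjamini-Hochberg adjusted p under 0.05 and an absolute log2 fold change over 1), with 27 at an unadjusted p under 0.05. That is 40.5% lower and 16.2% higher, against 14.2% lower and 19.6% higher over all 16582 genes tested. The share of all genes at an unadjusted p under 0.05 was not computed, here or in the comparisons below, so those counts have no background beside them. The median log2 fold change of the members was -0.98 and that of all genes -0.03. The 3 libraries of each line did not overlap for 15 members that were lower and 6 that were higher in *Mbd3* KO, while over all genes 31.1% did not overlap and were lower and 31.1% did not overlap and were higher. By family, the calls were 3 lower of 4 AMPA genes and 3 lower of 5 kainate genes. Of 5 NMDA genes 1 was lower and 1 higher, of 4 metabotropic glutamate genes 1 was lower, of 13 GABA-A genes 4 were lower and 4 higher, and of 2 GABA-B genes 1 was lower. The other calls were among the delta receptor genes, described below, and that of the scaffold gene *Grid2ip*, which was higher.

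Neuron markers fell in the same comparison. All 11 neuron markers tested were called lower in *Mbd3* KO, none of them had a KO mean of 0, and their sum ran from 111.2 to 234.5 CPM in *Mbd3* KO and from 1319 to 3238 CPM in WT. The 5 trophoblast markers were *Cdx2*, *Eomes*, *Elf5*, *Krt8* and *Krt18*. All 5 were called higher in the same comparison, and their sum rose from between 133.3 and 277.1 CPM to between 1410 and 1933 CPM. All 5 of 5 pluripotent cell markers were called higher too. The part of these cell types in the receptor changes was not tested. In bulk RNA, fewer cells of a type and less RNA per cell cannot be told apart.

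**Figure D2:**
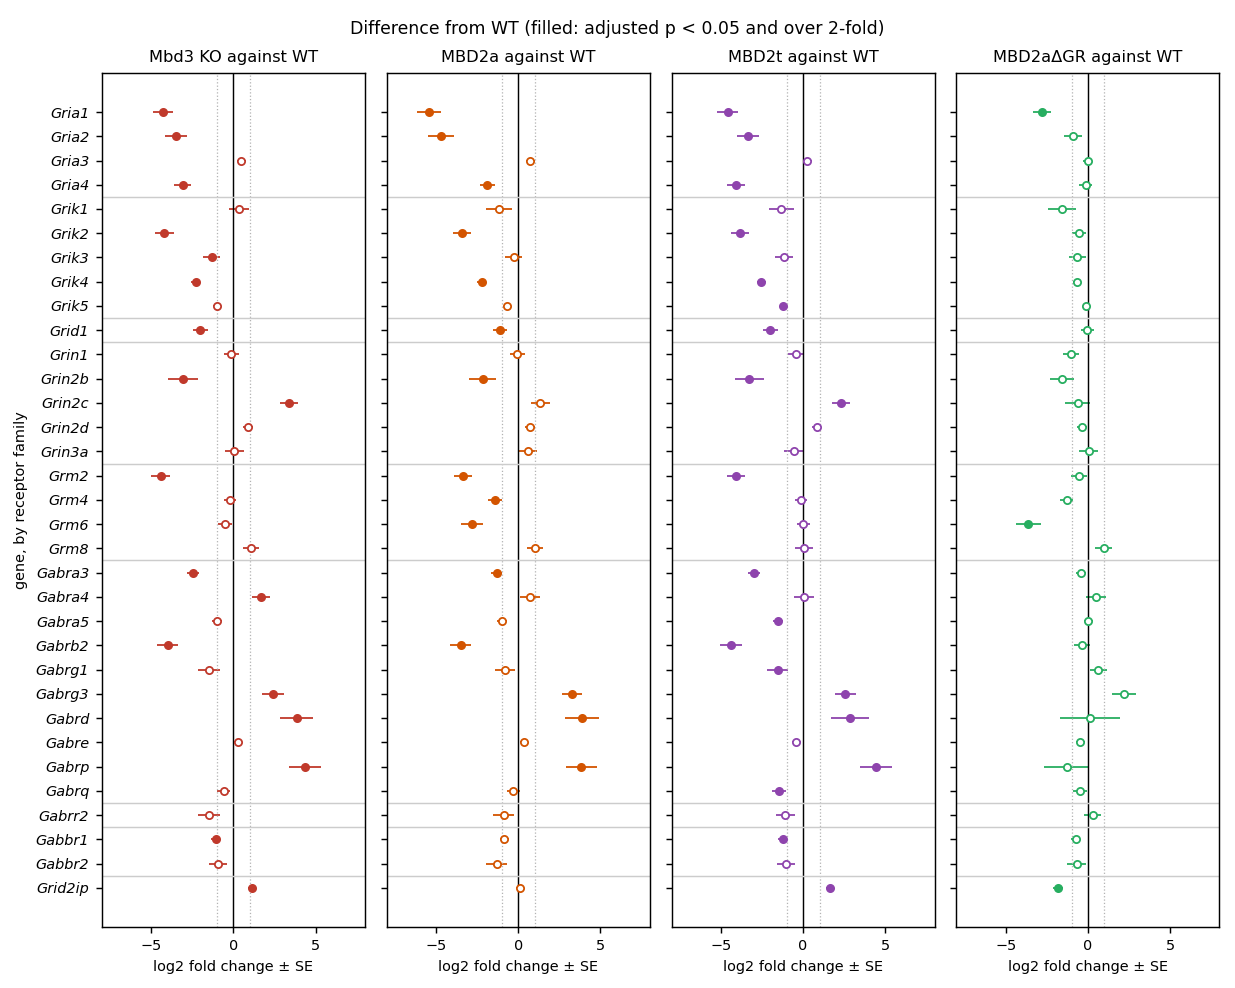
Log2 fold change against WT with its standard error for 33 of the tested genes in 4 lines; filled points passed both thresholds and dotted lines mark a change of 2-fold. *Mbd3* KO, MBD2a and MBD2t show *Gria1*, *Gria2*, *Grik2*, *Grm2* and *Gabrb2* far left of 0 with *Gria3* near 0, and MBD2aΔGR has 3 filled points.

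Among AMPA subunits, 3 fell steeply in *Mbd3* KO and *Gria3* did not. *Gria2* encodes the edited subunit that makes AMPA receptors impermeable to calcium. Its level in WT was 14.4, 9.82 and 4.12 CPM, and that in *Mbd3* KO 0.0858, 1.24 and 1.06 CPM. Every KO library lay below every WT library, and the log2 fold change was -3.51 ± 0.68 (SE, adjusted p = 0.0002137, edgeR). *Gria1* was at 12.9, 10.5 and 5.79 CPM in WT and at 0.0286, 0.775 and 0.608 CPM in *Mbd3* KO. The groups were again apart, with a log2 fold change of -4.29 ± 0.63 (adjusted p = 1.525e-05, edgeR). *Gria4*, between 3.70 and 4.88 CPM in WT, fell by 3.09 on the log2 scale. *Gria3* had 9.63, 11.3 and 7.16 CPM in WT and 6.55, 16 and 16.3 CPM in *Mbd3* KO. Its groups overlapped, with library s04 below all WT libraries and the other 2 above them, and the log2 fold change of 0.48 ± 0.27 was not called (adjusted p = 0.1348, edgeR).

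The make-up of the AMPA transcripts differed between the lines. *Gria3* was 21.6% ± 4.61 (SD, n = 3) of the summed AMPA RPKM in WT and 85.2% ± 7.03 in *Mbd3* KO, while the sum itself was 4.61 ± 1.58 RPKM in WT and 1.59 ± 0.756 RPKM in *Mbd3* KO. The shares did not overlap. *Gria3* also made up 85.4% ± 5.05 in MBD2a and 82.8% ± 1.64 in MBD2t, but 23.1% ± 5.37 in MBD3a, 20.2% ± 3.29 in MBD3ΔMBD and 19.3% ± 5.67 in MBD2aR181C. MBD2aΔGR was between, at 42.3% ± 14.5, with 27.3% in s16, 43.4% in s17 and 56.2% in s18.

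**Figure D3:**
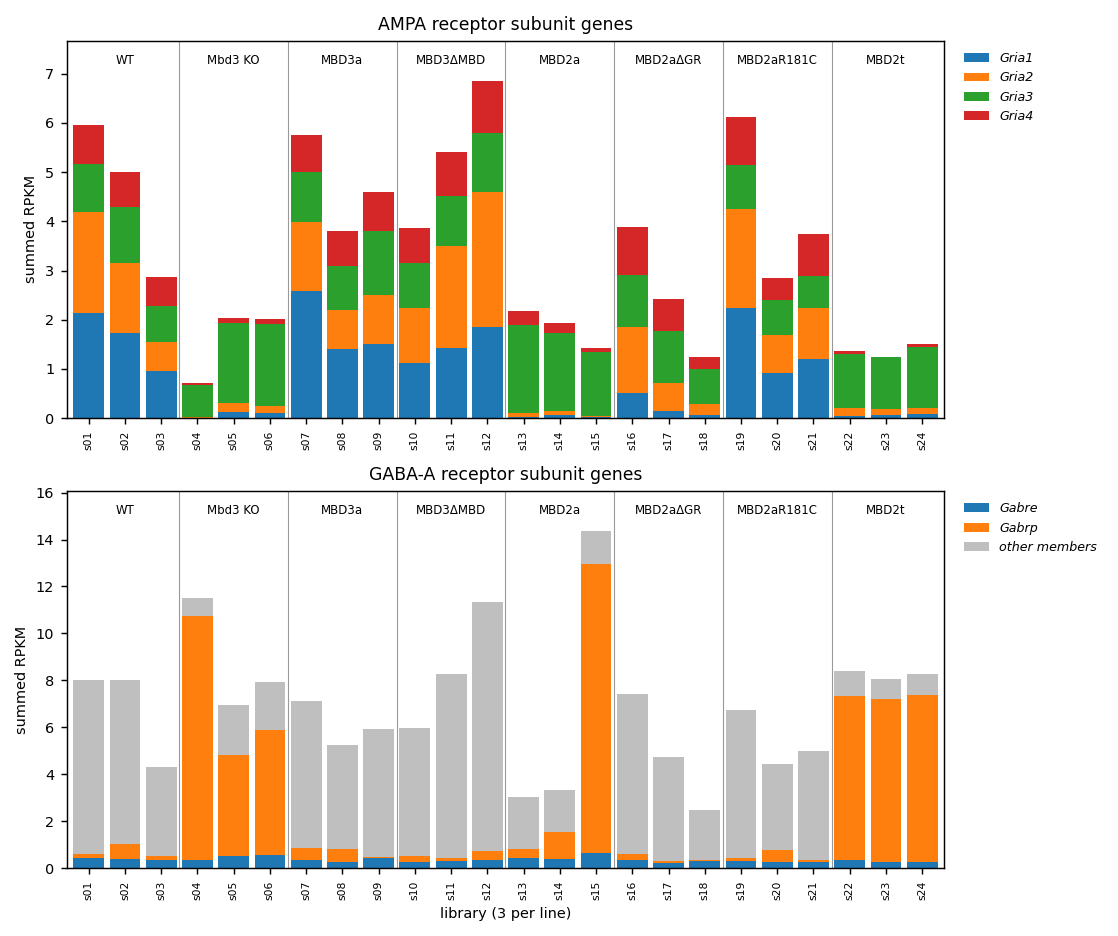
Summed RPKM of the AMPA (top) and GABA-A (bottom) subunit genes in each library, with the part of each gene in color; *Gabre* and *Gabrp* are colored among the GABA-A genes, and the rest are grouped as other members. *Gria3* fills most of the AMPA bars of *Mbd3* KO, MBD2a and MBD2t, and *Gabrp* most of the GABA-A bars of *Mbd3* KO, MBD2t and library s15 of MBD2a.

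Of 5 kainate receptor genes 3 were called lower, and the size of the fall differed from gene to gene. *Grik2* was at 7.73, 6.02 and 3.63 CPM in WT and at 0.0858, 0.420 and 0.397 CPM in *Mbd3* KO, a log2 fold change of -4.20 ± 0.60 (adjusted p = 1.12e-05, edgeR). *Grik4*, a high-affinity kainate subunit, was at 15.5, 14.6 and 11 CPM in WT and at 2.12, 3.17 and 3.12 CPM in *Mbd3* KO. Both genes were lower in every KO library than in every WT library. *Grik5*, the other high-affinity subunit and the most abundant member, was at 121, 107 and 70.6 CPM in WT and at 39.9, 52.7 and 57.3 CPM in *Mbd3* KO. Its groups did not overlap, but its log2 fold change of -0.995 ± 0.22 (adjusted p = 0.000649, edgeR) just missed the fold threshold, which it passed without WT library s03 (-1.195) and without KO library s05 (-1.035) or s06 (-1.108). *Grik3* was at 71.3, 51.1 and 11.7 CPM in WT and at 17.2, 19.7 and 16.9 CPM in *Mbd3* KO. Here WT library s03 lay below all KO libraries, and the call (log2 fold change -1.32 ± 0.53, adjusted p = 0.03791, edgeR) was lost in the fit of the 2 lines only and when any library of the pair other than s03 was left out. *Grik1* stayed under 0.5 CPM in every library.

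Among the delta receptor genes *Grid1* fell. *Grid1* was at 6.92, 6.57 and 2.46 CPM in WT and at 1.60, 1.11 and 1.27 CPM in *Mbd3* KO, with no overlap and a log2 fold change of -2.01 ± 0.45 (adjusted p = 0.0007799, edgeR). *Grid2ip*, which encodes a synaptic scaffold, went the other way, from between 1.83 and 2.17 CPM in WT to between 3.76 and 5.17 CPM in the KO, a difference of 1.14 ± 0.22 on the log2 scale (adjusted p = 0.0002059, edgeR) and a call lost at 0.98 when KO library s04 was left out.

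NMDA receptor genes did not move together. *Grin2c*, a subunit that comes up late in the cerebellum, was at 1.48, 1.49 and 0.463 CPM in WT and at 21, 6.51 and 8.36 CPM in *Mbd3* KO. Every KO library was above every WT library, with s04 the highest, and the log2 fold change was 3.395 ± 0.55 (adjusted p = 4.237e-05, edgeR). *Grin2b*, the subunit of the early forebrain, was low in all lines, at 0.537, 0.550 and 0.0974 CPM in WT and at 0, 0.0221 and 0.106 CPM in *Mbd3* KO. Its groups overlapped and it was called lower, at -3.09 ± 0.91 on the log2 scale (adjusted p = 0.005178, edgeR). *Grin1*, the obligatory subunit, was at 5.88, 5.01 and 4.70 CPM in WT and at 8.89, 3.23 and 2.38 CPM in *Mbd3* KO. KO libraries lay on both sides of the WT range, and the log2 fold change of -0.12 ± 0.45 was not called (adjusted p = 0.8335, edgeR). *Grin2d* was not called either at 0.89 ± 0.29. *Grin2c* made up 13.6% ± 3.73 of the summed NMDA RPKM in WT and 53.8% ± 11.3 in *Mbd3* KO. *Grin1*, *Grin2b* and *Grin2c* share 1307, 272 and 91 exon bases with genes on the opposite strand, and the strand setting of the counting is not named, so a part of their reads may belong to those genes.

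Of the metabotropic glutamate receptors only *Grm2* was called in *Mbd3* KO among the 4 tested. *Grm2*, a receptor that lowers transmitter release, was at 34.2, 42.0 and 17.7 CPM in WT and at 0.572, 1.57 and 2.14 CPM in *Mbd3* KO. The groups were far apart, with a log2 fold change of -4.43 ± 0.57 (adjusted p = 4.088e-06, edgeR). *Grm4*, of the group that also couples to inhibitory G proteins, was at 11.6, 11.2 and 5.01 CPM in WT and at 8.32, 7.39 and 8.46 CPM in *Mbd3* KO, which overlapped (adjusted p = 0.667, edgeR). *Grm2* went from 83.6% ± 1.69 to 19.9% ± 8.99 of the summed RPKM of this family and *Grm4* from 15.5% ± 1.65 to 74.0% ± 11.9.

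GABA-A subunit genes fell and rose in equal number. *Gabrb2*, a beta subunit, was at 7.73, 6.27 and 3.29 CPM in WT and at 0.0858, 0.420 and 0.529 CPM in *Mbd3* KO. *Gabra3*, an alpha subunit of the fetal brain, was at 3.92, 2.83 and 3.77 CPM in WT and at 0.486, 0.775 and 0.608 CPM in *Mbd3* KO. Neither gene overlapped between the groups, and the log2 fold changes were -4.01 ± 0.66 and -2.47 ± 0.37.

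The subunit genes that rose were of other kinds. *Gabrp* was at 0.591, 2.12 and 0.609 CPM in WT and at 35.0, 14.5 and 18 CPM in *Mbd3* KO, the largest rise at 4.36 ± 0.95 (adjusted p = 0.0006469, edgeR). The trophoblast marker sum in the same KO libraries was 1410, 1440 and 1933 CPM, so that s04 had the highest *Gabrp* and the lowest sum. In MBD2aΔGR, library s18 had 731.3 CPM of trophoblast markers, against 142.3 and 142.4 CPM in the other 2, and the lowest *Gabrp* of its line at 0.139 CPM. That library also held 3308 CPM of endoderm markers, and 0 of the 5 trophoblast markers were called in MBD2aΔGR against WT. In MBD2a, library s15 had both the highest trophoblast sum and the highest *Gabrp* of its line. The part of these markers in *Gabrp* was not tested. *Gabrg3* was at 0.107, 0.0275 and 0.122 CPM in WT and at 0.486, 0.487 and 0.476 CPM in *Mbd3* KO. *Gabrd*, a subunit of extrasynaptic receptors, had 2 reads in the WT libraries together and 35 in *Mbd3* KO, a ratio of 17 with a 95% counting interval of 4.37 to 146. Both were higher in every KO library but stayed under 0.5 CPM there. *Gabra4* was at 0.966, 0.688 and 0.828 CPM in WT and at 0.400, 3.27 and 4.21 CPM in *Mbd3* KO. Library s04 was below WT for *Gabra4* and the other 2 above it, and the call (log2 fold change 1.68 ± 0.55, adjusted p = 0.01249, edgeR) was lost in the fit of the 2 lines only and without s05 or without s06. *Gabra5* (-0.98 ± 0.31) just missed the fold threshold and passed it without WT library s01, WT library s03 or KO library s05. *Gabre* (0.28 ± 0.25) was not called.

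By length-scaled level, *Gabrp* was 4.73% ± 2.87 of the summed GABA-A RPKM in WT and 73.1% ± 15.0 in *Mbd3* KO. The sum itself was 6.78 ± 2.14 RPKM in WT and 8.80 ± 2.41 RPKM in *Mbd3* KO, a difference within the spread of the libraries.

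Many GABA-A subunit genes lie in clusters, and in those described here neighbors were not always called alike. The cluster of *Gabrb2* on chromosome 11 is not described. In *Mbd3* KO *Gabrg3* rose, and *Gabra5* next to it on chromosome 7 was not called. On chromosome X *Gabra3* fell, and its neighbors *Gabre* and *Gabrq* were not called. On chromosome 5 *Gabra4* rose, by the call that was lost without s05 or s06. *Gabrg1* was not called, at no more than 0.248 CPM in WT and 0.132 CPM in *Mbd3* KO, and *Gabra2* and *Gabrb1* were too low to test. Differences between neighbors were not tested.

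GABA-B receptors need both of their subunits at the cell surface. *Gabbr1* was at 95.8, 80.0 and 45.5 CPM in WT and at 33.9, 35.2 and 36.1 CPM in *Mbd3* KO, without overlap and with a log2 fold change of -1.07 ± 0.28 (adjusted p = 0.003096, edgeR), a call that was lost at -0.85 without WT library s01. *Gabbr2* was far lower in level, between 0.365 and 0.990 CPM in WT, and was not called (-0.93 ± 0.57), though it was at -1.27 (adjusted p = 0.04384, edgeR) without WT library s03 and MBD2aΔGR library s18. Without these libraries 26 members were called in *Mbd3* KO against WT, 20 of them lower and 6 higher. The share of all genes called in that fit was not computed.

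With MBD3a or MBD3ΔMBD added, no receptor gene was called different from WT. This was so in MBD3a, where 0% of all genes were called, and in MBD3ΔMBD, where 0.0181% were (edgeR). At an unadjusted p under 0.05 there was 1 member for MBD3a and 0 for MBD3ΔMBD, and DESeq2 also called 0 in both. Against *Mbd3* KO, 15 members were higher and 6 lower in MBD3a, with 13.5% of all genes higher and 18.9% lower. In MBD3ΔMBD 19 were higher and 6 lower, with 15.0% of all genes higher and 20.9% lower. *Gria2*, for example, was at 9.72, 5.50 and 6.87 CPM in MBD3a and at 7.76, 14.4 and 19 CPM in MBD3ΔMBD, next to at most 1.24 CPM in *Mbd3* KO. *Gabrp* was at 1.63, 1.91 and 0.208 CPM in MBD3a and at 0.841, 0.403 and 1.19 CPM in MBD3ΔMBD, below all KO libraries. The same KO libraries enter both comparisons and that with WT.

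With MBD2a added, most receptor genes that had fallen in *Mbd3* KO were again called lower than in WT. In all, 15 members were lower and 3 higher than in WT (40.5% and 8.11% of the members, 13.7% and 16.9% of all genes). The 3 that were higher were *Gabrg3*, *Gabrd* and *Gabrp*. Of the markers, 11 of 11 for neurons were lower than in WT (sum 61.47 to 204.6 CPM), while 5 of 5 for pluripotent cells (256.3 to 456.2 CPM), 4 of 5 for trophoblast (436.7 to 1966 CPM) and 4 of 6 for endoderm (129.9 to 766.1 CPM, WT 168 to 239.9 CPM) were higher, and their part in the receptor changes was not tested. *Gria2* was at 0.518, 0.471 and 0.127 CPM in MBD2a and *Grik2* at 0.777, 0.707 and 0.178 CPM, both under their WT libraries. The log2 fold changes from WT were -4.68 ± 0.78 and -3.41 ± 0.56. *Grm4*, not called in *Mbd3* KO, was at 1.67, 4.09 and 4.64 CPM in MBD2a and was called lower than WT at -1.41 ± 0.41 (adjusted p = 0.007116, edgeR). *Grm6*, the receptor of retinal bipolar cells, was under 0.4 CPM everywhere and was called lower at -2.80 ± 0.65, and it shares 599 exon bases with a gene on the opposite strand. Of the 18 calls, some were lost when a library was left out. Those of *Grid1* and *Grin2b* were each lost without either of several libraries, at log2 fold changes no nearer to 0 than -0.86. The *Grid1* call was also lost in the fit of the 2 lines only (adjusted p = 0.07403, edgeR). That of *Grin2b* was lost with DESeq2 (adjusted p = 0.06429) and the legacy method (adjusted p = 0.05483, edgeR).

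Libraries of the MBD2a line differed most for *Gabrp*, which was at 1.32, 3.95 and 41.5 CPM. The high value was that of s15, which also had 1966 CPM of trophoblast markers, against 497.4 and 436.7 CPM in the other 2 libraries. *Gabrp* was called against WT (3.85 ± 0.95, adjusted p = 0.002171, edgeR) but not without s15, at 1.27 (adjusted p = 0.1584, edgeR). The part of the trophoblast markers in this value was not tested. Without s15, 14 members were called in MBD2a against WT, 12 lower and 2 higher, and the share of all genes called was not computed.

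Against *Mbd3* KO directly, 3 members were called in MBD2a, all lower (4.40% of all genes were lower and 0.856% higher). They were *Grin2c*, *Grm6* and *Grid2ip*. *Grin2c* was at 3.22, 1.00 and 4.31 CPM in MBD2a and at 21, 6.51 and 8.36 CPM in *Mbd3* KO, which did not overlap (log2 fold change -2.05 ± 0.49, adjusted p = 0.01257, edgeR). *Grid2ip* was at 1.93, 1.83 and 2.42 CPM in MBD2a, below all KO libraries and near the range of WT. Without MBD2a library s14 none of the 3 was called, and none was in the fit of only these 2 lines. The calls of *Grin2c* and *Grid2ip* were also lost without KO library s04. *Grm6* had 1, 1 and 2 reads in the MBD2a libraries. Its call was also lost with DESeq2 (adjusted p = 0.09008), the legacy method and no filter on low counts. The same held without MBD2a library s13 or s15 and without KO library s05 or s06. By edgeR no member was called higher in MBD2a than in *Mbd3* KO. DESeq2 called 1, *Gabra3* (1.17, adjusted p = 0.03337), as did edgeR without s15 (1.44, adjusted p = 0.03084) and without s03 and s18 together (1.16, adjusted p = 0.03161).

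MBD2t, which lacks the coiled coil, differed from WT in most receptor genes and from *Mbd3* KO in none by the test. Against WT 18 members were lower and 5 higher, with 15.1% of all genes lower and 18.2% higher. Of the markers, 11 of 11 for neurons were lower (sum 153.8 to 168 CPM, WT 1319 to 3238 CPM), 5 of 5 for trophoblast higher (1163 to 1318 CPM, WT 133.3 to 277.1 CPM) and 5 of 5 for pluripotent cells higher (377.7 to 464.3 CPM, WT 20.61 to 107.4 CPM), and their part in the receptor changes was not tested. Against *Mbd3* KO no member was called (edgeR), where 0.0241% of all genes were, with 6 members at an unadjusted p under 0.05 and 0 called by DESeq2. *Gabrp* was at 23.6, 23.4 and 24 CPM and *Gria2* at 1.10, 0.795 and 0.829 CPM. Such close values come from repeats of 1 clone. *Grik5* (-1.21 ± 0.22), *Gabra5* (-1.52 ± 0.32), *Gabrg1* (-1.55 ± 0.64) and *Gabrq* (-1.46 ± 0.45) were called lower in MBD2t and not in *Mbd3* KO, and *Gabra4* and *Grik3* the reverse, but these differences between the 2 lines were not called. Without KO library s04, *Gabra4* was called between them (-2.12, adjusted p = 0.02147, edgeR). Against WT, the *Gabrg1* call was lost with DESeq2 (adjusted p = 0.05218), without the filter on low counts (adjusted p = 0.06322, edgeR), without s03 and s18 together (adjusted p = 0.05392, edgeR), and on leaving out WT library s01, s02 or s03 or MBD2t library s23 or s24. That of *Gabrq* was lost without WT library s01 (-1.12, adjusted p = 0.06912, edgeR).

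**Figure D4:**
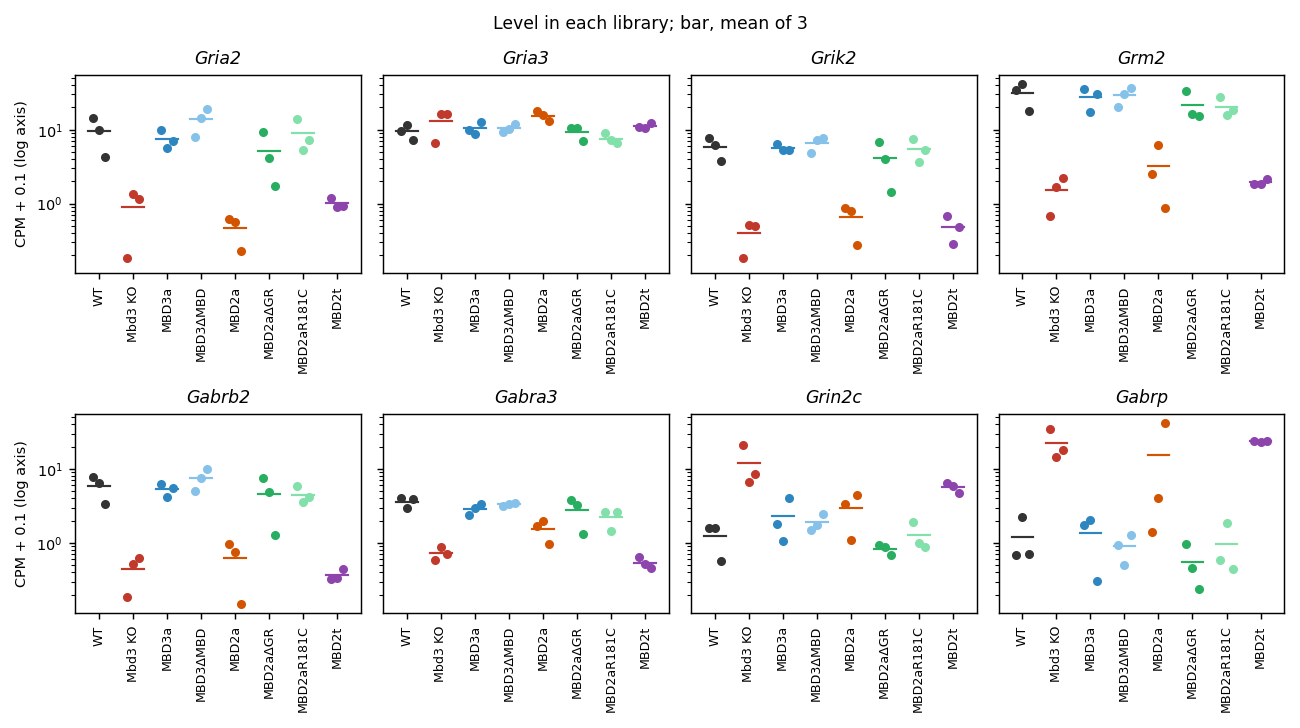
CPM plus 0.1 on a log axis, the same for all panels, of 8 receptor genes in each library of the 8 lines; bars are means of 3. *Gria2*, *Grik2*, *Grm2* and *Gabrb2* are low in *Mbd3* KO, MBD2a and MBD2t, *Gabrp* and *Grin2c* are high in every library of *Mbd3* KO and MBD2t, and *Gria3* lies within a narrow range throughout.

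The mutants of MBD2a had few or no receptor genes called against WT. In MBD2aR181C no member was called against WT (edgeR, 0.0181% of all genes), with 3 at an unadjusted p under 0.05 and 0 called by DESeq2. Against *Mbd3* KO 17 members were higher and 6 lower (13% and 18.1% of all genes). *Gria2* was at 14, 5.26 and 7.25 CPM and *Gabrp* at 0.488, 1.77 and 0.344 CPM, both within or near the WT range. In MBD2aΔGR 3 members were called against WT, *Gria1*, *Grm6* and *Grid2ip*, all lower (2.47% of all genes lower, 2.69% higher). None was called in the fit of only these 2 lines, and 10 reached an unadjusted p under 0.05 in the fit of all lines. Against *Mbd3* KO 14 members were higher and 7 lower (9.86% and 15.3% of all genes). The 11 neuron markers summed to between 1587 and 3306 CPM in MBD2aR181C, between 763.6 and 2098 CPM in MBD2aΔGR and between 61.47 and 204.6 CPM in MBD2a, and their part in the receptor levels was not tested.

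*Gria1* was the member for which MBD2aΔGR stayed farthest from WT among the AMPA genes. Its 3 libraries were at 3.10, 0.834 and 0.332 CPM, all below the WT minimum of 5.79 CPM, with a log2 fold change of -2.79 ± 0.55 (adjusted p = 0.008467, edgeR). *Gria2* in the same libraries was at 9.34, 4.05 and 1.61 CPM, which overlapped WT. In both genes s18 was the lowest library, and the same order of s16, s17 and s18 was seen in their neuron markers at 2098, 1173 and 763.6 CPM. Progenitor markers had the same order at 1997, 1579 and 1042 CPM, and pluripotent cell markers the reverse at 47.98, 121.6 and 286.1 CPM. All 6 endoderm markers were called higher in MBD2aΔGR than in WT. The part of these markers in the receptor levels was not tested. Without s18 the *Gria1* value was -2.30 (adjusted p = 0.05594, edgeR) and *Grid2ip* was the 1 member called, and without WT library s03 the count was 5. *Grid2ip* was at 0.707, 0.655 and 0.305 CPM in MBD2aΔGR, below every WT library. *Grm6* had 2 reads in MBD2aΔGR and 32 in WT, which is a ratio of 14.3 in favor of WT with a 95% counting interval of 3.64 to 123.

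MBD2a and its mutants were also compared directly. Against MBD2aΔGR, 10 members were lower in MBD2a and 5 higher (8.02% and 10.6% of all genes). Against MBD2aR181C, 15 were lower and 5 higher (12.2% and 15.1% of all genes). The MBD2a libraries are shared by the 2 comparisons. *Gria2* was lower in MBD2a than in MBD2aΔGR (log2 fold change -3.76 ± 0.82, adjusted p = 0.001804, edgeR) and than in MBD2aR181C (-4.60 ± 0.78, adjusted p = 0.0001213, edgeR). *Grm2* differed by -2.81 ± 0.53 and -2.745 ± 0.53. For both genes every MBD2a library was below every library of both mutants. *Gria3* went the other way against MBD2aR181C, with 17.8, 15.7 and 12.8 CPM in MBD2a and 8.88, 7.16 and 6.43 CPM in MBD2aR181C (1.04 ± 0.27, adjusted p = 0.004162, edgeR). This call was lost under the fold threshold without MBD2a library s13 (0.93) or MBD2aR181C library s21 (0.94). *Gabrp* was higher in MBD2a against both mutants (5.14 ± 1.10 and 4.21 ± 0.97). Without s15 it was 2.57 against MBD2aΔGR and, no longer called, 1.64 against MBD2aR181C, and the counts of called members were 10 and 13. In the fit of only the 2 lines they were 8 and 13. Without MBD2aΔGR library s18, 20 members were called between MBD2a and MBD2aΔGR, 16 of them lower and 4 higher in MBD2a.

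Genes that make, pack and clear the transmitters changed along with the receptors in *Mbd3* KO. Of 11 genes for vesicular transporters and synthesis, 6 were lower and 2 higher. Over all genes 14.2% were lower and 19.6% higher, which is also the comparison for each list below. *Slc32a1*, the vesicular transporter of GABA and glycine, went from a mean of 34.4 CPM in WT to 0.631 CPM (log2 fold change -5.75 ± 0.95). *Slc17a6*, a vesicular glutamate transporter, had 17 reads in WT and 0 in *Mbd3* KO and was at least 5.83-fold lower, taking 3 reads over the group as the floor. *Slc17a7*, the other main vesicular glutamate transporter, rose from 2.09 to 8.99 CPM (2.10 ± 0.33), and the glutaminase gene *Gls2* rose by 1.28 ± 0.37. The median of this list was -1.39, and that of all genes -0.03.

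Of 9 plasma membrane transporters tested, 3 were lower and 3 higher, with a median of 0.52. *Slc1a2* and *Slc1a3*, the glial glutamate transporters, fell from 58.6 to 2.46 CPM (-4.56 ± 0.58) and from 73.5 to 17.2 CPM (-2.09 ± 0.39). The betaine and GABA transporter *Slc6a12* rose from 0.122 to 12.3 CPM (6.61 ± 0.71) and the GABA transporter *Slc6a13* from 1.07 to 4.83 CPM (2.15 ± 0.43). *Slc1a3* is also 1 of the progenitor markers.

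Auxiliary subunits, which set the trafficking and gating of the receptors, were called lower for 10 of 22 genes and higher for 2, with a median of -0.90. *Cacng2* (stargazin), which carries AMPA receptors to the synapse, fell from 2.69 to 0.0772 CPM (-5.06 ± 0.92), and *Lhfpl4*, a partner of synaptic GABA-A receptors, from 50.2 to 1.63 CPM (-4.925 ± 0.40). *Cacng5* (1.75 ± 0.45) and the neuronal pentraxin gene *Nptx2* (1.255 ± 0.20) rose. Of 33 genes for postsynaptic scaffolds and adhesion, 14 were lower and 2 higher, with a median of -0.68. *Nlgn1* (-4.80 ± 0.67) and *Nrxn3* (-4.73 ± 0.75), which adhere across the synaptic cleft, fell most, while the kinase gene *Camk2b* (1.19 ± 0.21) and the scaffold gene *Homer2* (1.16 ± 0.17) rose. Of 8 genes for the chloride gradient and the NMDA co-agonists, 4 were lower and 1 higher, with a median of -0.94. The glycine transporter gene *Slc6a5* (-5.47 ± 0.89) and the glycine-cleaving *Gldc* (-1.84 ± 0.19) fell, as did *Slc12a5* (-1.64 ± 0.30), which encodes the chloride extruder that matures with neurons, and *Srr*. *Dao*, which degrades D-serine, rose from 0.0791 to 1.02 CPM (3.63 ± 0.58), and *Slc12a2*, the chloride importer, was not called (0.08).

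In MBD2aΔGR against WT, the same lists had 0 of 11, 0 of 9, 3 of 22, 1 of 33 and 0 of 8 genes called, in the order above, all calls being lower. Over all genes 2.47% were lower and 2.69% higher in that comparison. In MBD2a the calls were 4 lower and 2 higher of 11, 2 and 3 of 9, 8 and 0 of 22, 12 and 1 of 33, and 4 and 1 of 8, where 13.7% of all genes were lower and 16.9% higher. The difference between these counts was not tested as such.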

How the data were processed

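The gene table deposited by the authors holds raw counts, with no normalization, from single-end directional libraries of polyadenylated RNA. Reads had been trimmed with Trim Galore, placed on NCBIM37 (mm9) with STAR and GENCODE gene models, and summed per gene with qCount of QuasR. The strand setting of the counting is not given in the sources used here. The 25400 genes of the table were all found in GENCODE vM1 on NCBIM37, from which exon lengths, overlaps and start regions were read.

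Genes were filtered with filterByExpr by line (16582 left), TMM-scaled, and compared by edgeR 4.0.16 (R 4.3.3, quasi-likelihood F test, not the legacy method), using a model of the 24 libraries that had no term but the line. Calls needed a Benjamini-Hochberg adjusted p under 0.05 over all 16582 genes and an absolute log2 fold change over 1. Each standard error was obtained by dividing the size of the log2 fold change by the root of its F statistic. CPM used the TMM-scaled library sizes, and RPKM divided CPM by the union exon length. The procedure was tested on simulated counts. Library totals ran from 27993858 to 49392806, with a median of 36797095, and 3 reads were 0.0607 to 0.115 CPM. Floors and read intervals (exact, 95%) cover counting error only. Permuting 3 libraries against 3 exactly (two-sided) gives no p under 0.1. No library pair agreed within sampling noise (the lowest chi-square per gene was 3.32).

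Values per library are given for members with a mean of 1 CPM or more in at least 1 line that were called in a comparison with WT, and for the 5 largest rises and 5 largest falls in *Mbd3* KO. From each list of pathway genes the 2 lowest and 2 highest log2 fold changes are named, and any gene of a list with 5 or fewer calls may be. *Gabra3*, *Gabrp*, *Grin2c* and *Gria2* were chosen for their start regions after their values were seen. *Grin1*, *Gria3*, *Grm4*, *Gabra5*, *Grik5* and others not called are named where their family is described. The members and lists were chosen with earlier results of these data known. *Kctd12* and *Sox1*, in 2 of the lists, were not analysed here. Some members are counted in the totals but are not reported here by name. The study's ChIP-seq data were not analysed here. No library column of the gene table was left unused (0). The alternatives were RLE scaling, no filter, DESeq2 1.42.0, fits of the 2 lines only, no fold threshold and leaving out each library. The legacy method and a fit without WT library s03 and MBD2aΔGR library s18 were chosen after seeing the data, and so were shares by CPM.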

Additional observations from a re-analysis of the deposited data

How the results depend on the processing

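The count of called members in *Mbd3* KO against WT was 21, and between 21 and 23 when each library was left out in turn. The other ranges on leaving out a library were 14 to 21 for MBD2a against WT, 21 to 24 for MBD2t against WT, 0 to 0 for MBD3a, MBD3ΔMBD and MBD2aR181C against WT, 1 to 8 for MBD2aΔGR against WT (8 without s16, 5 without WT library s03, 1 without s18), 18 to 21 for MBD3a, 23 to 27 for MBD3ΔMBD, 0 to 4 for MBD2a (0 without s14), 17 to 23 for MBD2aΔGR, 19 to 24 for MBD2aR181C and 0 to 1 for MBD2t, each against *Mbd3* KO, 10 to 20 for MBD2a against MBD2aΔGR and 13 to 19 for MBD2a against MBD2aR181C (13 without s15). The single member called in MBD2t against *Mbd3* KO appeared without KO library s04.

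A fit of only the 2 lines compared gave 8 called members for MBD2a against MBD2aΔGR, 13 for MBD2a against MBD2aR181C, 0 for MBD2a against *Mbd3* KO, 13 for MBD2aΔGR against *Mbd3* KO and 0 for MBD2aΔGR against WT. These fits have fewer libraries to estimate the spread. The fit of all lines also takes the 3 MBD2t repeats of 1 clone into the spread used for every comparison. Chi-square per gene was 3.32 to 6.28 for pairs of MBD2t libraries and 10.01 or more for pairs within any other line. How far these repeats lowered the shared spread was not tested. DESeq2 gave 5 for MBD2aΔGR against WT, and leaving out WT library s03 and MBD2aΔGR library s18 gave 5 for MBD2a against *Mbd3* KO, where the cause was not tested. All other counts under RLE scaling, no filter, DESeq2, no fold threshold, the legacy method and without these 2 libraries were within 1.5 times the reported count. Shares of all genes called were not computed for any alternative. Of the gene values checked, only that of *Grin1* in *Mbd3* KO, not called, changed sign, ranging from -0.88 without KO library s04 to 0.11 without s05 and 0.20 without s06. By CPM in place of RPKM the WT share was 29.6% for *Gria3* and 76.0% for *Grm2*. No paired analysis was possible because the columns carry no replicate number. Genes under about 0.1 CPM are limited by depth, and the 3 MBD2t libraries carry no spread between clones.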
